A study of Sus scrofa with 30 samples.

Results

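A group of 36 genes named as homeobox, forkhead and related developmental factors was followed through the epithelial and mesenchymal tissue of pig teats. The members were chosen by name, as every probe set with a single gene symbol beginning with HOXA to HOXD, MSX, DLX, TBX, FOX, SOX, GATA, PAX, LHX, PITX, NKX, HAND or MEIS, or with the prefix of the sine oculis family of SIX4, with MSX1 left out. The 36 genes are covered by 56 probe sets, out of 6765 symbols on the array that have a probe set with a single symbol. Where a gene had several probe sets, the brightest of them, averaged over all 30 arrays, stood for it. The largest families were the forkhead factors with 10 genes, the HOX genes with 6 and the GATA factors with 4. LHX and SOX had 3 genes each and MEIS had 2, and DLX5, HAND1, NKX6-1, PAX3, SIX4 and TBX2 stood alone. Of the 36, 34 are transcription factors. FOXRED1, an oxidoreductase of mitochondria, and TBXAS1, the thromboxane synthase, matched the pattern by name.

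HOX genes lie in clusters and give cells their position along the body axis, and MEIS proteins bind DNA beside HOX proteins as partners. FOXA and GATA factors can open closed chromatin, and FOXA1 and GATA3 are known as factors of the hormone-responsive luminal cells of the mammary gland. FOXO factors are held out of the nucleus by insulin signalling, and T-box factors such as TBX2 act in the budding of limbs and mammary glands in mice.

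The series was made to find genes that bear on the predisposition to inverted teats in pigs. Teats were taken at slaughter, at a mean end weight of 110 kg, from 10 peripubertal pigs of commercial dam lines, 5 with and 5 without inverted teats on inspection and palpation. The 6 groups held 5 arrays each: in either tissue, the teats of the pigs without the defect, and from each pig with it 1 normal and 1 inverted teat. The non-affected animals were numbered 950, 957, 1040, 1058 and 1109 and the affected 963, 964, 1037, 1059 and 1103. Animals 957 and 963 were German Landrace, the other 6 were Large White x German Landrace, and 1103 and 1109 had a Pietrain parent besides, written Pietrain x (Large White x German Landrace). Each array was hybridised with labelled RNA of 1 tissue piece, so fewer cells of a type and less RNA per cell cannot be told apart.

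The values are log2 probe set summaries, with array medians between 5.71 and 6.04. The 5 arrays a group and the spread of a gene between pieces both limit the precision. For inverted against normal teats in mesenchyme, the SE of a member's difference ran from 0.17 to 1.83. The tissue labels were set against marker genes. The mean of KRT8, KRT18 and KRT19, keratins of simple epithelia, lay between 9.27 and 10.66 on 14 of the 15 epithelial arrays and at 6.75 on the epithelial array of the inverted teat of animal 1103, which stood apart. Among the 10 mesenchymal arrays of normal teats the same mean ran from 2.38 to 10.65, and it was between 9.15 and 10.65 in animals 950, 957, 963 and 964, close to the epithelial level. Of the marker lists, 10 of 10 adipocyte genes and 22 of 23 skeletal muscle genes tested were called lower in the epithelium of normal teats. Of 17 luminal genes 12 were called higher and 1 lower, and of 7 keratinocyte genes 2 higher and 0 lower. Of 13 fibroblast genes 3 were called higher and 2 lower. Their mean was 10.52 to 10.96 in epithelium and 10.11 to 10.71 in mesenchyme, so the list mean was alike in both tissues. Single genes were not, with POSTN at 1.34, ASPN at 1.31 and LUM at 0.63, against MFAP5 at -0.63 and FAP at -0.57. Of all probe sets 12.9% were called higher and 20.6% lower.

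Members differed in how clearly they were measured. To be tested, a probe set had to exceed the 30th percentile of its array on 5 or more arrays of the fit. By that rule 15 members were above the 30th percentile on all 30 arrays, 30 were tested in at least 1 of the 10 comparisons and 6 in none. DLX5, a bone and limb factor, HOXD12, a factor of the developing digits, and SOX9, the master factor of cartilage, were above the 30th percentile on 0 of 30 arrays. LHX9, SOX6 and SIX4 were above it on 1, 2 and 4 arrays. SIX4, which works in skeletal muscle development, read 5.25, 5.89 and 5.88 in the mesenchyme of the normal teats of animals 950, 1058 and 1059 and 4.91 in the inverted teat of 1059, against at most 4.42 on the other 26 arrays. The skeletal muscle mean of those 4 pieces was 9.92, 11.23, 11.60 and 10.98, while pieces with means of 10.65 (normal teat of 963) and 10.13 (inverted teat of 1037) read 4.15 and 4.42 for SIX4. SIX4 was singled out after its values were seen.

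In normal teats, 13 of the 28 members tested differed between epithelium and mesenchyme after Benjamini-Hochberg adjustment in limma over 18286 probe sets, at a threshold of 0.05. That share, 46.4%, is set beside 33.5% of all probe sets tested. In epithelium 6 members were higher, 21.4% against 12.9% of all probe sets, and 7 were lower, 25% against 20.6%. FOXA2 and PAX3 passed the filter in mesenchyme only. Among the 26 members that passed it in both tissues 12 were called, 46.2% against 33.1% of such probe sets, with 6 higher and 6 lower. The members' median difference was 0.04 on the log2 scale and that of all probe sets was -0.06. With quantile normalization 54.8% of all called probe sets were higher in epithelium, against 38.5% as deposited, and the members then split into 7 higher and 6 lower. Members higher in epithelium were FOXA1, GATA3, MEIS1, FOXP1, MEIS2 and GATA2, and those lower were HOXA9, FOXA2, HOXD8, FOXO3, FOXO1, HOXA3 and TBX2. Without the mesenchymal arrays of animals 950, 957, 963 and 964, an alternative chosen after seeing the data, the same 13 members were called, of 27 tested. The share of all probe sets called there is not given here, so the unchanged count is not a result about the members. With the animal as a replicate block 15 were called, FOXRED1 and GATA6 being added, while the share of all probe sets called rose to 44.4%.

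**Figure D1:**
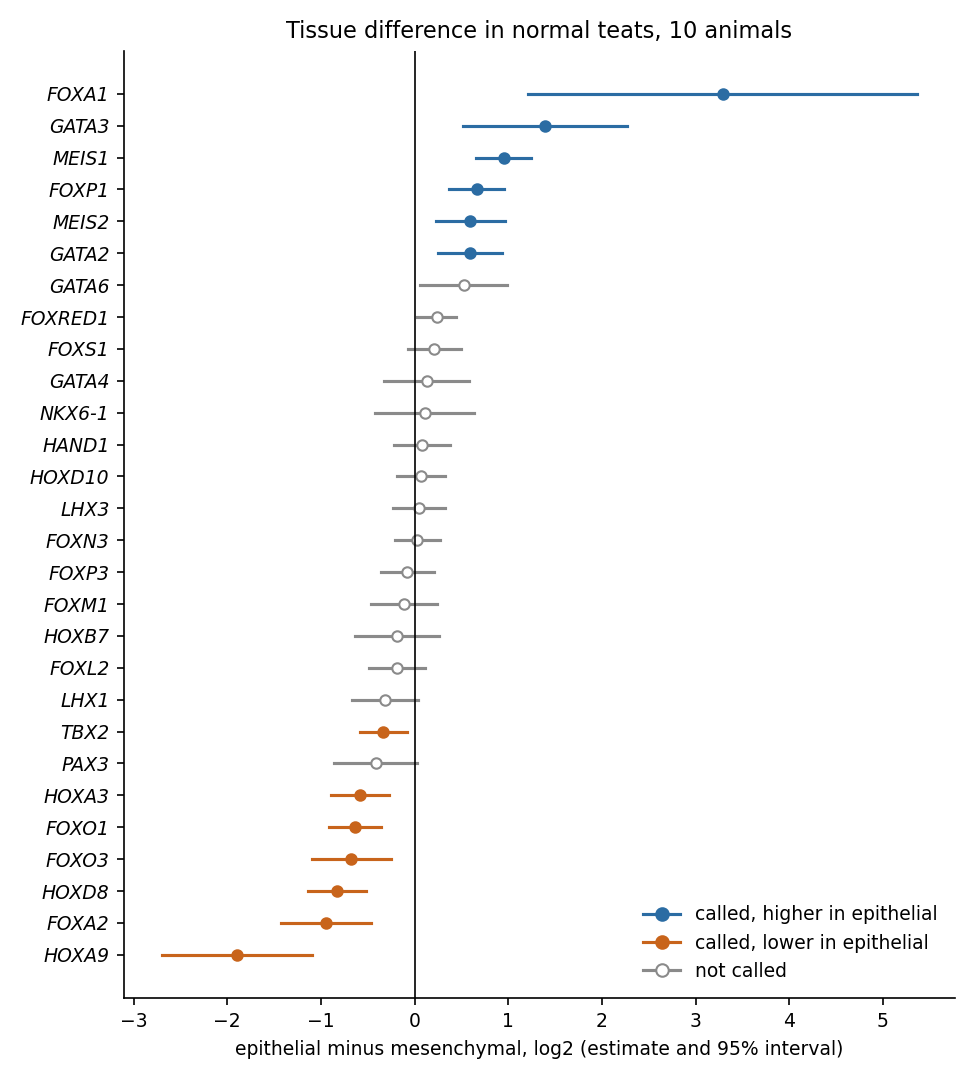
Each row is 1 of the 28 members tested, with the epithelial minus mesenchymal difference in normal teats (log2) as a point and its 95% interval as a line. Filled blue points are the 6 members called higher in epithelium, filled orange points the 7 called lower, and open grey points the rest; FOXA1 has the largest difference and the widest interval.

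FOXA1, which opens chromatin for the oestrogen receptor in mammary luminal cells, had the largest estimated tissue difference of the set. In epithelium of normal teats it ran from 7.63 to 9.57 with a median of 9.03 over 10 arrays. In mesenchyme it read 8.42, 9.08, 5.89, 2.35 and 5.51 in non-affected animals 950, 957, 1040, 1058 and 1109. In affected animals 963, 964, 1037 and 1059 it read 8.82, 9.38, 2.33 and 4.24, and it was listed at 0 in animal 1103. The mesenchymal arrays thus spread over most of the scale while the epithelial ones stayed close together, and the ranges overlapped. The difference was 3.29 ± 0.997 (SE; limma adjusted p = 0.0162), and epithelium was higher in 10 of 10 animals, by 0.11 to 5.33 in the 9 whose mesenchymal value was above 0. FOXA1 was above the 30th percentile on 6 of the 10 mesenchymal arrays, so the size of the difference rests partly on values below it. Without animal 1103 the difference was 2.59 (adjusted p = 0.043).

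The mesenchymal pieces with high FOXA1 were those with high keratins. In animals 950, 957, 963 and 964, where FOXA1 was 8.42 to 9.38, the keratin mean was 9.15 to 10.65. In the other 6 mesenchymal pieces of normal teats, FOXA1 was at most 5.89 and the keratin mean at most 7.28. Without the mesenchymal arrays of those 4 animals the FOXA1 difference was 5.50, and with the keratin mean as a covariate it was 0.14 (limma adjusted p = 0.776). With the skeletal muscle mean as a covariate it was 3.35 (adjusted p = 0.118).

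**Figure D2:**
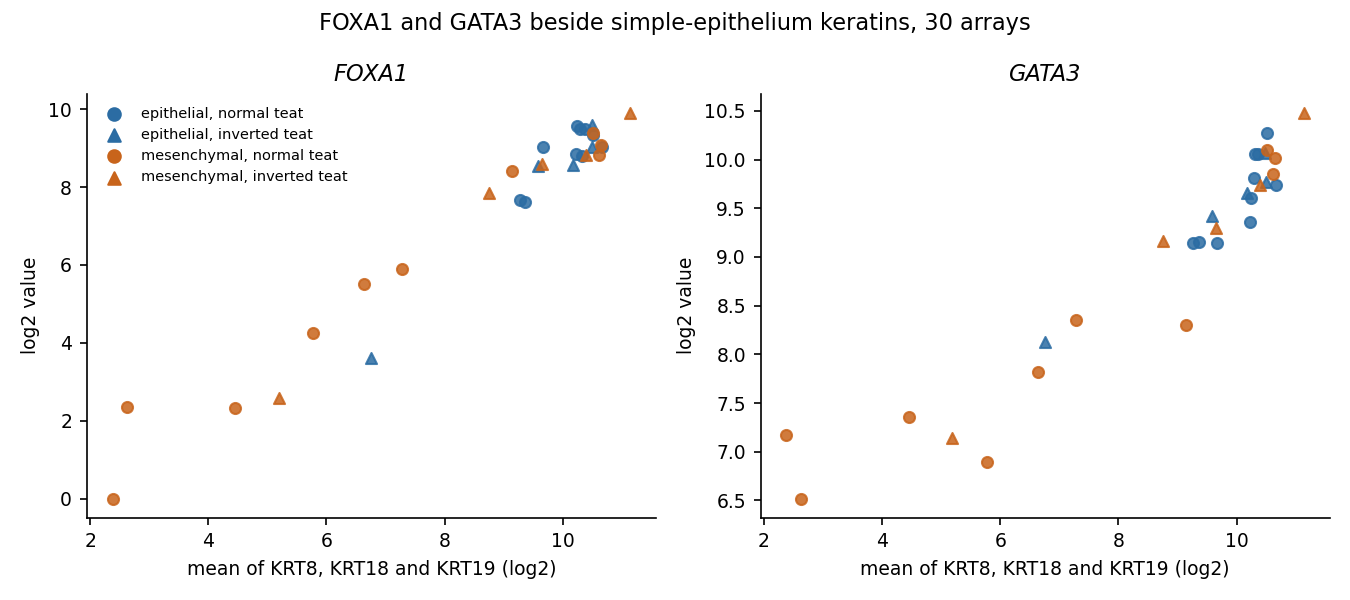
Each point is 1 of the 30 arrays, with the keratin mean (KRT8, KRT18, KRT19; log2) on the x axis and FOXA1 or GATA3 (log2) on the y axis; blue is epithelial, orange mesenchymal, circles are normal and triangles inverted teats. Mesenchymal arrays with a keratin mean above 9 lie at the level of the epithelial arrays for FOXA1, and the epithelial inverted array of animal 1103 lies low in both panels.

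GATA3, a factor needed for luminal mammary cells and for hair follicles in mice, followed the same arrays in part. In epithelium of normal teats it ran from 9.14 to 10.27 with a median of 9.67, and its mean was 9.63 ± 0.42 (SD, n = 10). In mesenchyme it was 8.30, 10.02, 8.35, 6.52 and 7.82 in animals 950, 957, 1040, 1058 and 1109, and 9.85, 10.10, 7.36, 6.90 and 7.17 in animals 963, 964, 1037, 1059 and 1103. Animals 957, 963 and 964 thus carried an epithelial level of GATA3 in the mesenchymal piece. Animal 950, whose keratins were also high, read 8.30, no higher than animal 1040 at 8.35. The difference was 1.40 ± 0.420 (SE; limma adjusted p = 0.0155), with epithelium higher in 8 of 10 animals. It was 2.28 without the mesenchymal arrays of animals 950, 957, 963 and 964 and 0.18 with the keratin covariate (adjusted p = 0.674), and 1.01 with the muscle covariate (adjusted p = 0.241). Animals 957, 963 and 964 held the highest mesenchymal GATA3 values, so the rise to 2.28 was built in. The other 3 GATA3 probe sets differed by 0.96 to 1.04, of which 1 was called. Leaving out animal 1059 brought the GATA3 difference to 1.20 (adjusted p = 0.0513).

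MEIS1, a homeodomain partner of HOX proteins, was the member with the smallest adjusted p. In epithelium of normal teats it ran from 8.12 to 8.86 with a median of 8.47, and in mesenchyme from 7.07 to 8.0 with a median of 7.38. No mesenchymal array reached the lowest epithelial one. The difference was 0.95 ± 0.143 (SE; limma adjusted p = 9.11e-05), with epithelium higher in 10 of 10 animals, and the call was kept in 18 of 18 alternatives. It held with the keratin mean as a covariate and with the skeletal muscle mean. The second MEIS1 probe set was also called, at 0.68. MEIS2, its close relative, was 6.85 ± 0.48 (SD, n = 10) in epithelium and 6.26 ± 0.43 (SD, n = 10) in mesenchyme. Its difference was 0.60 ± 0.179 (SE; limma adjusted p = 0.0153), the same way in 10 of 10 animals, though the ranges of 5.84 to 7.28 and 5.81 to 7.14 overlapped. MEIS2 lost its call with either covariate while its estimate stayed at 0.62 with the keratin mean (adjusted p = 0.0839) and 0.63 with the muscle mean (adjusted p = 0.103).

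FOXP1, a forkhead repressor of many epithelia, ran from 6.63 to 7.57 in epithelium and from 6.13 to 7.11 in mesenchyme of normal teats. The 3 highest mesenchymal values, 7.11, 7.08 and 6.87, came from animals 963, 964 and 950, which were also among those with high keratins, while animal 957, the fourth of these, read 6.36. The FOXP1 difference was 0.66 ± 0.142 (SE; limma adjusted p = 0.00171), higher in epithelium in 10 of 10 animals, and 0.45 with the keratin covariate (adjusted p = 0.073). GATA2, a factor of blood and endothelial cells, had a mean of 6.79 ± 0.32 (SD, n = 10) in epithelium and 6.20 ± 0.40 (SD, n = 10) in mesenchyme. Its difference was 0.59 ± 0.165 (SE; limma adjusted p = 0.0105). It was 0.63 with the keratin covariate (adjusted p = 0.0573) and 0.37 with the muscle covariate (adjusted p = 0.26), both not called. The ranges of 6.28 to 7.28 and 5.61 to 6.97 overlapped. Epithelium was the higher in 9 of 10 animals, animal 1040 being the exception, and the highest mesenchymal value, 6.97, came from animal 1037. A second GATA2 probe set differed by -0.21 (adjusted p = 0.133), so the gene's probe sets pointed in opposite directions, and their mean differed by 0.19 (adjusted p = 0.22). The endothelial marker mean, 7.36 to 8.08 in epithelium and 7.29 to 8.38 in mesenchyme, covered like ranges in both tissues.

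Of the 6 HOX genes, HOXA9, HOXD8 and HOXA3 were lower in epithelium of normal teats, HOXB7 and HOXD10 were not called and HOXD12 was not tested. HOXA9, a gene of the posterior part of its cluster, had the largest of these differences. In mesenchyme it read 7.03, 7.14, 7.25, 8.52 and 6.45 in animals 950, 957, 1040, 1058 and 1109, and 7.21, 5.70, 5.86, 8.73 and 7.72 in animals 963, 964, 1037, 1059 and 1103. In epithelium of the same animals it read 4.52, 6.16, 5.13, 4.83 and 4.39, and 6.11, 4.53, 5.03, 5.18 and 6.78. The tissues overlapped between 5.70 and 6.78, but every animal had less HOXA9 in its epithelial piece, by 0.83 to 3.68. The difference was -1.90 ± 0.385 (SE; limma adjusted p = 0.00111).

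The 2 highest HOXA9 values in mesenchyme of normal teats, in animals 1058 and 1059, came from the pieces with the highest skeletal muscle means, 11.23 and 11.60. Other pieces went the other way. The piece with the lowest muscle mean, 2.95 in animal 1040, read 7.25 for HOXA9, and that of animal 1103, with 7.95, read 7.72. The lowest HOXA9 value, 5.70 in animal 964, came with a muscle mean of 9.36. With the muscle mean as a covariate the HOXA9 difference was -1.50 (limma adjusted p = 0.07). With the keratin covariate the call was kept.

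HOXD8 was 7.67 ± 0.27 (SD, n = 10) in epithelium and 8.50 ± 0.36 (SD, n = 10) in mesenchyme of normal teats. The epithelial arrays ran from 7.21 to 8.21 and the mesenchymal from 8.04 to 9.04, so they met only at their edges. The HOXD8 difference was -0.83 ± 0.147 (SE; limma adjusted p = 0.000366), lower in epithelium in 10 of 10 animals, and -0.56 with the muscle covariate (adjusted p = 0.0623). HOXA3, a gene of the anterior part of the cluster, was 5.30 ± 0.26 (SD, n = 10) in epithelium and 5.88 ± 0.39 (SD, n = 10) in mesenchyme. Its difference was -0.58 ± 0.149 (SE; limma adjusted p = 0.00606), lower in epithelium in 9 of 10 animals, with animal 1058 the other way. HOXB7, at -0.18 ± 0.216, and HOXD10, at 0.07 ± 0.123, were above the 30th percentile on all 30 arrays. Their 95% intervals, from -0.63 to 0.27 and from -0.19 to 0.32, leave room for differences of up to about the size seen for HOXA3 in HOXB7 but not in HOXD10. A second HOXB7 probe set had the opposite sign, at 0.07 ± 0.294 (SE), and was not called.

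**Figure D3:**
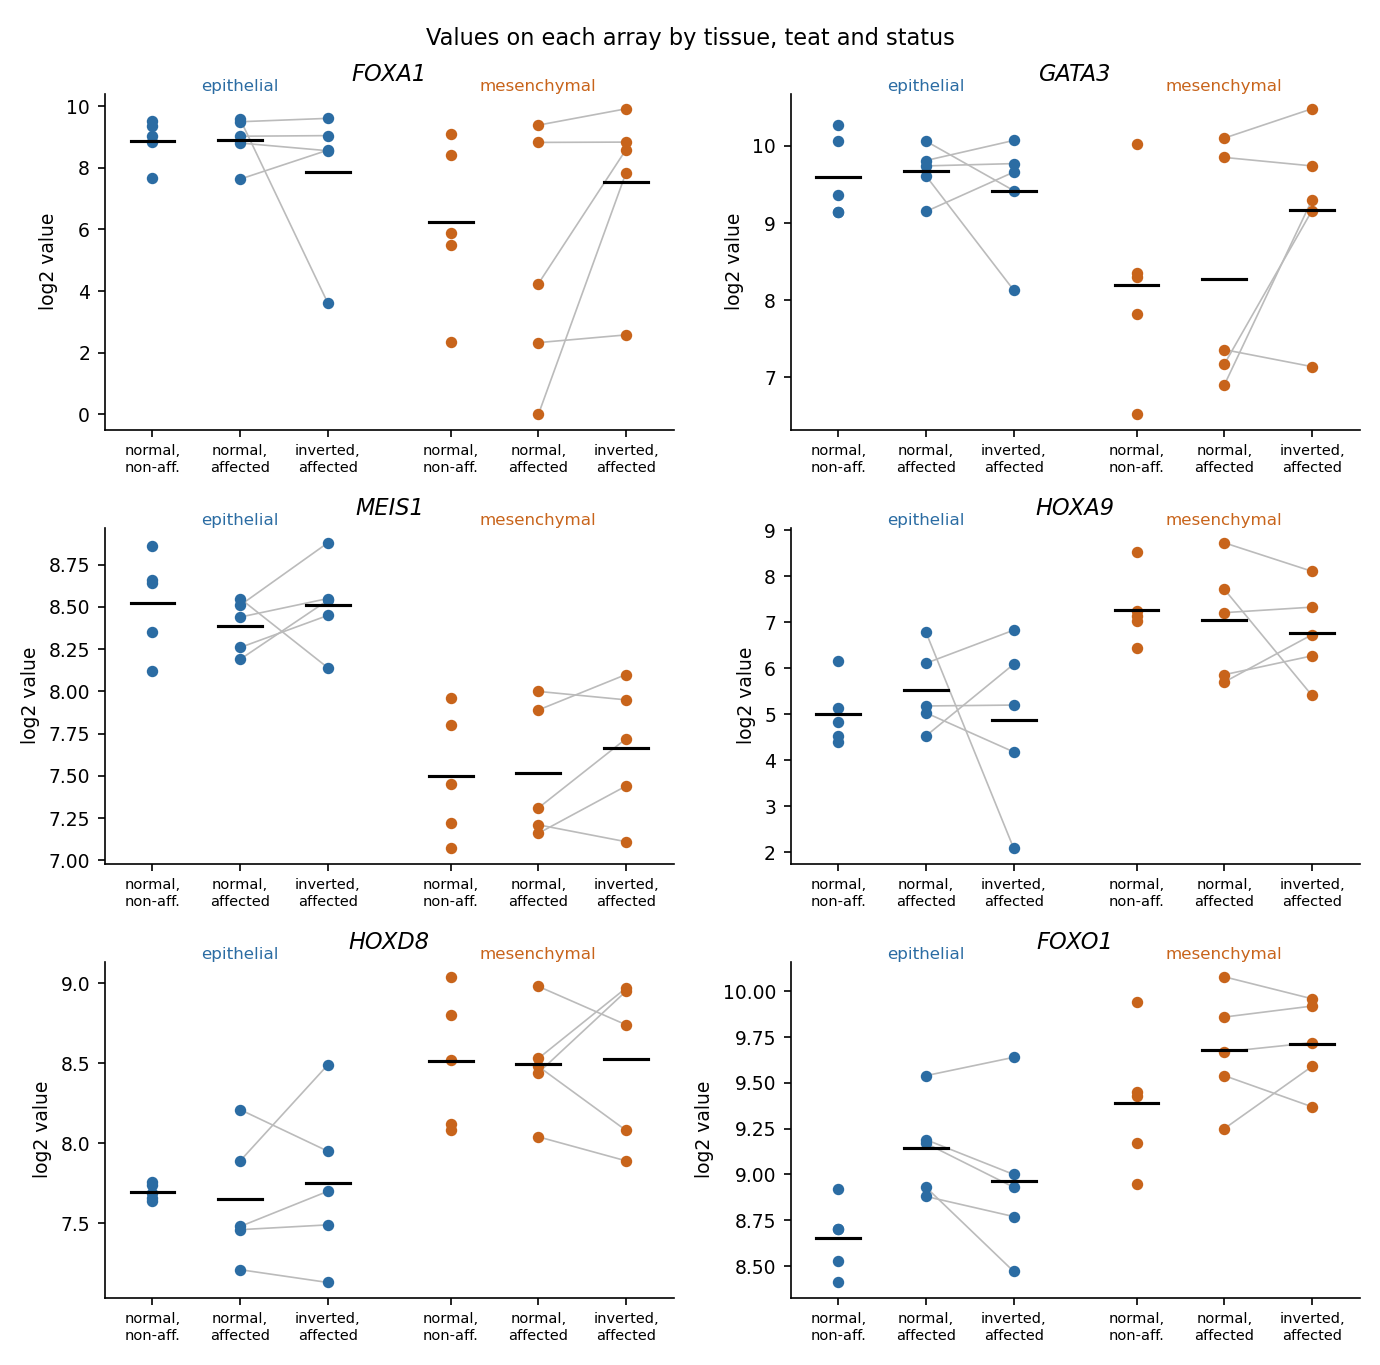
Values on each array (log2) for FOXA1, GATA3, MEIS1, HOXA9, HOXD8 and FOXO1 in the 6 groups, with 5 points a group, the group mean as a black bar, left out where an array is listed at 0, and grey lines joining the normal and inverted teat of an affected animal. MEIS1 separates the tissues of normal teats with no overlap, whereas FOXA1 and GATA3 reach epithelial levels in some mesenchymal pieces.

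The forkhead factors went in both directions between the tissues. FOXO1, a target of insulin signalling that is abundant in fat and muscle, ran from 8.41 to 9.54 in epithelium and from 8.95 to 10.08 in mesenchyme of normal teats. It was lower in epithelium in 10 of 10 animals, by 0.06 to 1.24, with a difference of -0.64 ± 0.134 (SE; limma adjusted p = 0.00147), and of -0.34 (adjusted p = 0.124) for the mean of its probe sets. FOXO3, its relative, was 5.14 ± 0.55 (SD, n = 10) in epithelium and 5.82 ± 0.48 (SD, n = 10) in mesenchyme, also lower in 10 of 10 animals. The FOXO3 difference was -0.67 ± 0.203 (SE; limma adjusted p = 0.0155). Without animal 1103, whose mesenchymal value of 6.81 was the highest, it was -0.56 (adjusted p = 0.0506). The adipocyte marker mean moved with the tissues, from 7.11 to 9.53 in epithelium and from 9.32 to 11.14 in mesenchyme, and its part in the FOXO differences was not tested.

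FOXA2, known from liver, lung and gut, was near the limit of measurement. It was above the 30th percentile on 2 of the 10 epithelial and all 10 mesenchymal arrays of normal teats, so it was tested only through the tissue where it is higher, as PAX3 was. In epithelium it ran from 2.64 to 5.21 and in mesenchyme from 4.92 to 5.54, with overlap through animals 957 and 1109. The FOXA2 difference was -0.95 ± 0.232 (SE; limma adjusted p = 0.00449), lower in epithelium in 8 of 10 animals, and its size rests on epithelial values mostly below the 30th percentile. With the keratin covariate the calls of FOXA2, FOXO3 and HOXA3 were lost, with estimates of -0.86, -0.57 and -0.52 and adjusted p-values of 0.0633, 0.159 and 0.079, and that of FOXO1 was kept.

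TBX2, a T-box repressor, had the smallest called difference, at -0.33 ± 0.122 (SE; limma adjusted p = 0.0419). Its epithelial values ran from 6.60 to 7.45 and its mesenchymal values from 6.94 to 7.88. The TBX2 call was lost in 10 of 18 alternatives, among them quantile normalization (-0.25, adjusted p = 0.173) and leaving out any one of animals 1037, 1040, 1058, 1059, 1103 and 1109. Its other 2 probe sets differed by -0.13 and 0.08 and were not called.

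The other 15 members tested in normal teats were not called between tissues. GATA6, a factor of heart and gut, differed by 0.53 ± 0.224 (SE; limma adjusted p = 0.0754) and FOXRED1 by 0.24 ± 0.098 (SE; limma adjusted p = 0.0698); with the animal as a replicate block both were called. PAX3, a factor of muscle progenitors and pigment cells, differed by -0.42 ± 0.211, and LHX1, a kidney and neural factor, by -0.32 ± 0.169. For FOXN3, the 95% interval of the difference ran from -0.21 to 0.27, and for LHX3, a pituitary factor, from -0.23 to 0.33. FOXL2, FOXM1, FOXP3, FOXS1, GATA4, HAND1 and NKX6-1 had estimates between -0.19 and 0.21.

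Related genes were counted from lists of named factors, beside 12.9% of all probe sets called higher and 20.6% called lower. Of 10 partner proteins of the members, 2 were higher in epithelium of normal teats (20%) and 0 lower, with a median difference of 0.23. These were LMO2, which bridges GATA and LIM factors, at 0.55 ± 0.162 (SE; limma adjusted p = 0.0138) and SSBP2 at 0.32 ± 0.110 (adjusted p = 0.0308). Of 23 other developmental factors, 8 were higher (34.8%) and 1 lower (4.35%), with a median of 0.20. Among the 8, ELF3 and EHF are also on the luminal marker list and were counted there as well. The smallest p among those higher belonged to ELF3, an epithelial ETS factor, at 1.45 ± 0.360 (SE; limma adjusted p = 0.00497), followed by PRRX1 at 0.55 ± 0.156 (adjusted p = 0.0117). CUX1, a homeodomain factor outside the families above, was the one lower, at -0.88 ± 0.126 (SE; limma adjusted p = 6.7e-05). Of 13 Polycomb and Trithorax regulators of HOX genes, 1 was higher (7.69%) and 2 were lower (15.4%). These were MTF2 at 1.19 ± 0.352 (SE; limma adjusted p = 0.0145), DPY30 at -0.63 ± 0.122 (adjusted p = 0.00072) and RING1 at -0.26 ± 0.094 (adjusted p = 0.037).

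In inverted teats 2 of the 26 members tested were called between tissues, 7.69%, against 12.4% of 17108 probe sets. Each direction held 1 member, 3.85%, against 0.848% of all probe sets higher and 11.5% lower in epithelium. MEIS1 was higher in epithelium, with 8.14, 8.45, 8.54, 8.55 and 8.88 in animals 963, 964, 1037, 1059 and 1103 against 7.95, 8.10, 7.11, 7.72 and 7.44 in mesenchyme. Each animal's epithelial value exceeded its mesenchymal one, by 0.19 to 1.44, and no mesenchymal array reached the lowest epithelial one. The difference was 0.85 ± 0.209 (SE; limma adjusted p = 0.0274). FOXO1 was lower, with 9.64, 8.93, 9.0, 8.77 and 8.47 in epithelium and 9.92, 9.37, 9.59, 9.72 and 9.96 in mesenchyme of the same animals. Only the epithelium of animal 963 overlapped the mesenchymal range. The FOXO1 difference was -0.75 ± 0.215 (SE; limma adjusted p = 0.0444).

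Over 13 alternatives MEIS1 lost its call in 7, with estimates from 0.70 to 1.07, and FOXO1 in 9, with estimates from -0.87 to -0.27. With quantile normalization, which moved the median difference of all probe sets from -0.12 to 0.01, 0 members were called; MEIS1 was then at 1.07 (limma adjusted p = 0.0721) and FOXO1 at -0.38 (adjusted p = 0.279). With the animal as a replicate block 4 members were called, FOXO3 and HOXD8 being added, and 3683 probe sets in all (21.5%) against 2115. Without the epithelial array of animal 1103 neither was called, MEIS1 having an adjusted p of 0.0548 and FOXO1 of 0.0832, and HAND1 was called instead. In inverted teats HAND1 was above the 30th percentile on 2 of 5 epithelial and 5 of 5 mesenchymal arrays. Leaving out animal 964 kept MEIS1 only, and leaving out animal 1037, 1059 or 1103 left 0 members called, with 1 probe set called in all each time. For the mean of a gene's probe sets MEIS1 alone was called.

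Of the other members called in normal teats, FOXA2 was not tested in inverted teats and none of the rest was called. The median SE of a member was 0.22, against 0.16 in normal teats. HOXA9 differed by -1.90 ± 0.808 (SE; limma adjusted p = 0.141) and HOXD8 by -0.77 ± 0.292 (adjusted p = 0.103), both lower in epithelium in 5 of 5 animals. FOXO3 and HOXA3 were also lower in 5 of 5 animals, and FOXP1 and GATA2 were higher in 5 of 5. MEIS2 was higher in 4, GATA3 in 3 and FOXA1 in 2 of 5 animals, and TBX2 was lower in 2. FOXA1 differed by 0.32 ± 1.42 (SE; limma adjusted p = 0.899). FOXA1 in inverted epithelium was 9.04, 9.60, 8.57, 8.55 and 3.61 in animals 963, 964, 1037, 1059 and 1103, and in inverted mesenchyme 8.83, 9.91, 2.58, 8.59 and 7.84. Animal 1103 was thus low in epithelium and high in mesenchyme, the reverse of its normal teat, where epithelium read 9.57 and mesenchyme was listed at 0. The keratin mean of the same 5 mesenchymal pieces was 10.39, 11.14, 5.19, 9.65 and 8.76, so only animal 1037 had low keratins there. On the epithelial inverted array of animal 1103 HOXA9 read 2.08 and HOXA3 2.87, the lowest of the 30 arrays for each, while MEIS2 at 8.16, HOXD10 at 8.65 and HOXB7 at 7.89 were the highest of the 30.

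The teat comparisons asked which members differ between inverted and normal teats of affected animals, and between affected and non-affected animals. None of the 26 members tested in epithelium and none of the 29 in mesenchyme was called in any of these 6 comparisons by limma, and the share of all probe sets called was 0% in each. At an unadjusted limma p under 0.05, 1 of 26 members and 303 of 17661 probe sets passed for inverted against normal teats in epithelium. For affected against non-affected animals these counts were 3 and 420, and for inverted teats against non-affected animals 0 and 484. In mesenchyme, of 29 members and 17839 probe sets, they were 1 and 78, 0 and 201, and 1 and 219 in the same order. In each comparison the probe sets passing were fewer than the share of 0.05 that chance alone would give. The median 95% interval of a member reached 0.46 to either side of its estimate in epithelium and 0.51 in mesenchyme. These intervals are unadjusted, and even the -0.74 of FOXA2 given below was not called after adjustment. They come from fits that took no account of which teats belonged to the same pig. The correlation between arrays of a pig, estimated over the probe sets, was 0.402 in epithelium and 0.510 in mesenchyme. For inverted against normal teats of the same pigs, the SEs and intervals given may therefore be wider than those of a paired fit. The comparisons within a tissue share arrays, so their values for a member are not independent.

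**Figure D4:**
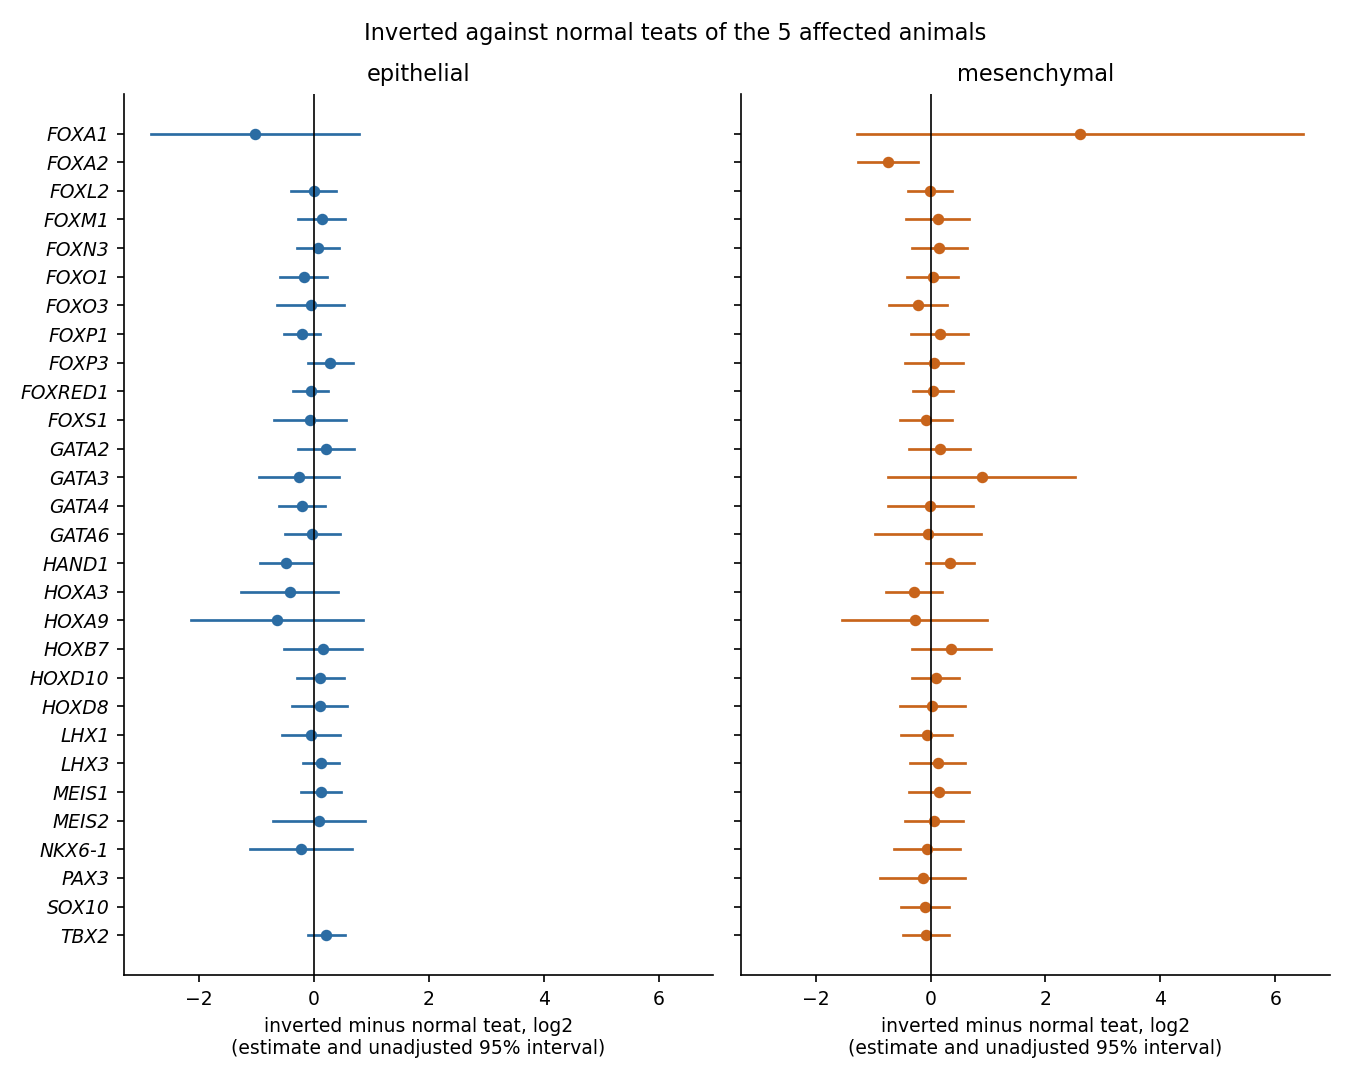
Inverted minus normal teat of the 5 affected animals (log2) for each member tested, with epithelial tissue on the left and mesenchymal on the right. Points are estimates and lines unadjusted 95% intervals, from fits that did not pair the teats of a pig. HAND1 in epithelium and FOXA2 in mesenchyme are the members whose interval leaves out 0, and FOXA1 has the widest interval in mesenchyme.

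Between inverted and normal teats in epithelium, HAND1, a factor of heart and placenta, had the smallest p. It read 5.25, 5.74, 5.06, 4.94 and 5.47 in the normal teats of animals 963, 964, 1037, 1059 and 1103 and 4.62, 4.85, 4.36, 4.65 and 5.52 in their inverted teats. The inverted teat was the lower in 4 of 5 animals, and animal 1103, whose inverted epithelial array stood apart, was the exception. HAND1 was above the 30th percentile on 9 of 10 epithelial arrays of normal teats but on only 2 of 5 of inverted teats. The size of its difference thus rests on inverted values mostly below that percentile. The difference was -0.49 ± 0.212 (SE; limma adjusted p = 1), with an unadjusted 95% interval from -0.94 to -0.04. FOXP3, the factor of regulatory T cells, read 5.24, 4.81, 5.36, 5.0 and 4.77 in the normal and 5.30, 4.96, 5.74, 5.50 and 5.11 in the inverted teats of the same animals, higher in the inverted teat of 5 of 5. It differed by 0.28 ± 0.184 and TBX2 by 0.21 ± 0.151, while FOXP1 differed by -0.21 ± 0.150, with unadjusted limma p-values from 0.14 to 0.176. FOXP1 was lower in the inverted teat of 5 of 5 animals, by 0.03 to 0.46.

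In mesenchyme, FOXA2 had the smallest p of any teat comparison. It read 5.26, 4.96, 5.20, 5.25 and 4.92 in normal teats of non-affected animals 950, 957, 1040, 1058 and 1109. The normal teats of affected animals 963, 964, 1037, 1059 and 1103 read 4.96, 4.95, 4.98, 5.32 and 5.54, and their inverted teats 4.54, 3.38, 4.72, 4.59 and 4.84. All 5 inverted teats were below all 10 normal ones. FOXA2 was above the 30th percentile on 10 of 10 normal but only 2 of 5 inverted mesenchymal arrays, so it was tested through the teats where it is higher, and the size of the differences below rests on values near the limit of measurement. The difference from the normal teats of the same animals was -0.74 ± 0.244 (SE; limma adjusted p = 1), with an unadjusted 95% interval from -1.26 to -0.22. The difference from non-affected animals was -0.70 ± 0.244 (SE; limma adjusted p = 1), from -1.22 to -0.18. Without animal 964, the lowest, these were -0.53 and -0.44.

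FOXA1 in mesenchyme differed by 2.60 ± 1.83 (SE; limma adjusted p = 1) between inverted and normal teats, with an interval from -1.29 to 6.48. The inverted teat was the higher in 5 of 5 animals, but only by 0.01 to 0.53 in 963, 964 and 1037, against 4.35 in 1059. In 1103 it was listed at 0 in the normal and read 7.84 in the inverted teat, so the difference there has no measured size. In animals 1059 and 1103 the keratin mean was 9.65 and 8.76 in the inverted and 5.78 and 2.38 in the normal mesenchymal piece. GATA3 in the same pieces was 9.30 and 9.16 in inverted and 6.90 and 7.17 in normal teats. With the keratin covariate the FOXA1 difference was 0.20, and without animal 1103 it was 1.29. HAND1 differed by 0.34 ± 0.197 and HOXA3 by -0.28 ± 0.228 in this comparison.

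HOXB7, singled out after its values were seen, was higher in the mesenchyme of the inverted teat in 5 of 5 animals by a similar amount. It read 6.65, 6.69, 7.36, 6.27 and 7.38 in the normal and 6.97, 7.03, 7.76, 6.63 and 7.77 in the inverted teats of animals 963, 964, 1037, 1059 and 1103, so the steps were 0.32 to 0.40 while the groups overlapped. The HOXB7 difference was 0.36 ± 0.320 (SE; limma adjusted p = 1), and 0.36 ± 0.205 (adjusted p = 1) with the animal as a replicate block. In epithelium the steps of the same animals ran from -0.56 to 0.90. A second HOXB7 probe set differed by 0.22 ± 0.462 (SE) between inverted and normal teats in mesenchyme and was not called.

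Between affected and non-affected animals, FOXO1 in the epithelium of normal teats had the smallest p. It read 8.53, 8.92, 8.70, 8.41 and 8.70 in non-affected animals 950, 957, 1040, 1058 and 1109 and 9.54, 9.17, 9.19, 8.88 and 8.93 in affected animals 963, 964, 1037, 1059 and 1103. Only 8.92 and 8.88 crossed between the groups. The difference was 0.49 ± 0.193 (SE; limma adjusted p = 0.999), with an unadjusted 95% interval from 0.08 to 0.90. FOXP1 followed at 0.37 ± 0.150 (SE; limma adjusted p = 0.999), with values of 6.63 to 7.33 in non-affected and 7.14 to 7.57 in affected animals. FOXP3 was at -0.39 ± 0.184 (SE; limma adjusted p = 0.999), from 5.05 to 5.78 in non-affected and from 4.77 to 5.36 in affected animals. GATA6 in this comparison was at -0.36 ± 0.226.

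In the mesenchyme of normal teats, FOXO3 was at 0.44 ± 0.239 and FOXS1 at 0.35 ± 0.211 for affected minus non-affected animals, and FOXP3 was at -0.37 ± 0.238 and MEIS2 at -0.31 ± 0.237. Their unadjusted limma p-values ran from 0.0853 to 0.204. For inverted teats against non-affected animals in epithelium, FOXO3 was at 0.39 ± 0.275, FOXO1 at 0.31 ± 0.193, GATA6 at -0.38 ± 0.226 and NKX6-1, a factor of insulin-producing cells and motor neurons, at -0.58 ± 0.417. In mesenchyme FOXO1 was at 0.33 ± 0.209, GATA2 at 0.33 ± 0.248 and FOXP3 at -0.31 ± 0.238. The 95% interval of each of these estimates included 0.

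**Figure D5:**
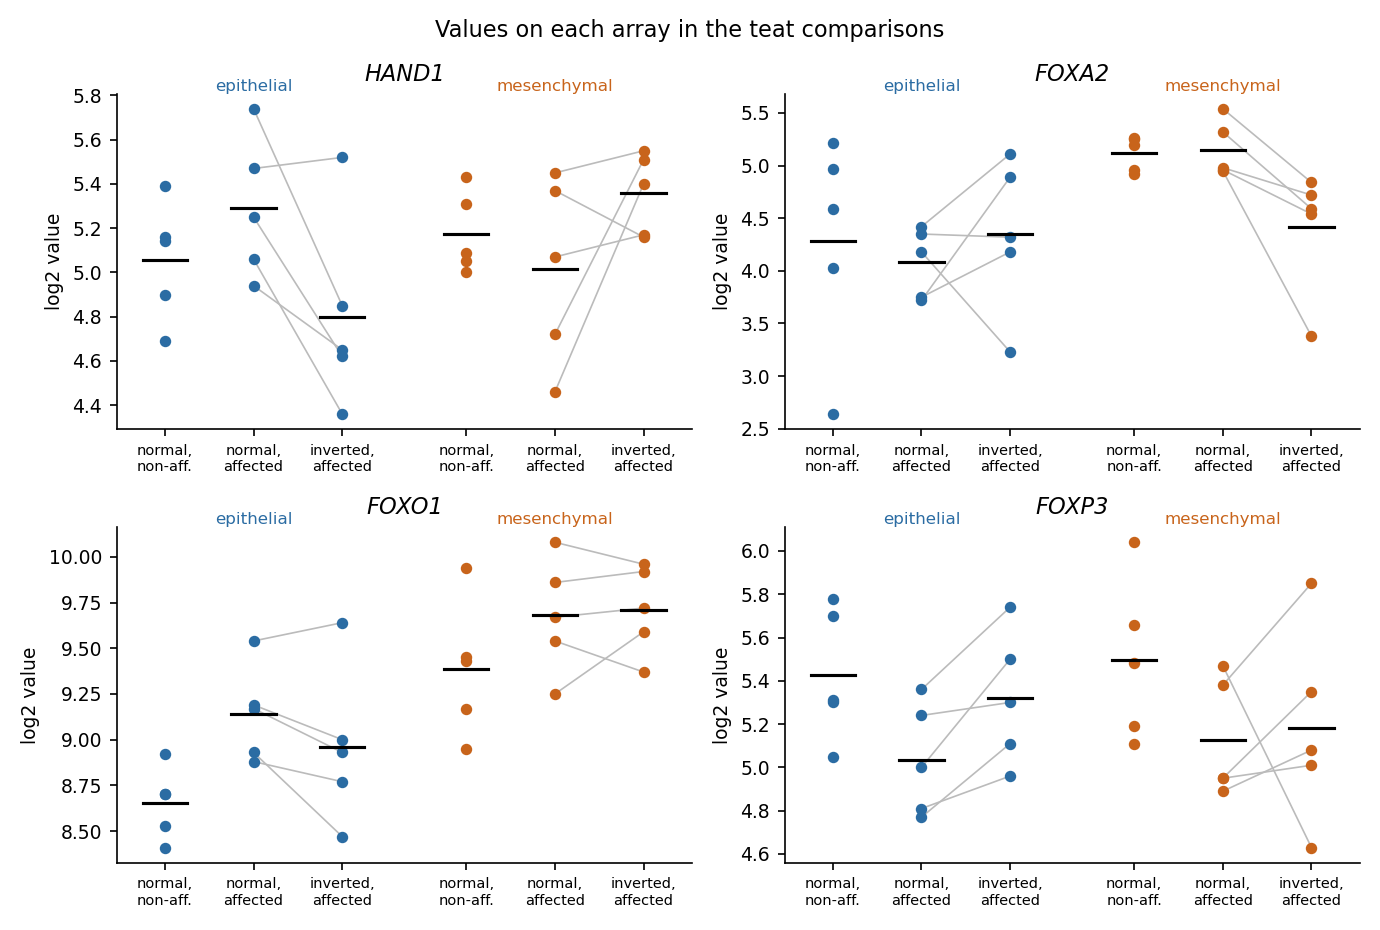
Values on each array (log2) for HAND1, FOXA2, FOXO1 and FOXP3 in the 6 groups, with 5 points a group, the group mean as a black bar and grey lines joining the normal and inverted teat of an affected animal. FOXA2 in mesenchyme lies lower in all 5 inverted teats than in all normal teats, and HAND1 in epithelium falls along 4 of the 5 lines.

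An interaction term, fitted over all 30 arrays and 18783 probe sets, asked whether the teats differed by more in one tissue than in the other. None of the 30 members tested was called in either interaction, and the share of all probe sets called was 0%. At an unadjusted limma p under 0.05, 1 of 30 members and 171 of 18783 probe sets passed for the inverted against normal difference. For the affected against non-affected difference these counts were 0 and 121. That member was HAND1, whose inverted minus normal difference was -0.49 in epithelium and 0.34 in mesenchyme, an interaction of -0.84 ± 0.289 (SE; limma adjusted p = 1). It rests in part on the inverted epithelial arrays, of which HAND1 was above the 30th percentile on only 2 of 5. FOXA1 had an interaction of -3.62 ± 2.14 (SE; limma adjusted p = 1), which was -2.56 without the epithelial inverted array of animal 1103, -1.08 without that animal and -0.40 with the keratin covariate. FOXA2 was at 1.0 ± 0.512 and PAX3 at 0.57 ± 0.443. For the affected against non-affected difference, HAND1 was at 0.40 ± 0.289, FOXP1 at 0.35 ± 0.275, GATA6 at -0.47 ± 0.506 and GATA2 at -0.27 ± 0.345.

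None of the related genes on the lists of partner proteins, other developmental factors and Polycomb and Trithorax regulators was called in a teat comparison or an interaction. In inverted teats, CUX1 at -0.74 ± 0.147 (SE; limma adjusted p = 0.0169) and DPY30 at -0.87 ± 0.197 (adjusted p = 0.0215) were lower in epithelium, as they were in normal teats.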

How the data were processed

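RNA of each tissue piece was hybridised to an Affymetrix Porcine Genome array, 30 in all, and the series table of 24123 probe sets was used as deposited. Its values are on a log scale that was taken as log2 from their range, since the base is not stated per the labels. Per the submitters' processing notes the software was GCOS 1.1.1 and PLIER, whose roles are not given, and whether arrays were normalised to one another is not given in the sources used here. Symbols came from the platform's probe table, and 34 of the 36 members' Entrez IDs were found in a RefSeq gene table. Genome coordinates and sequences were not used.

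The members and the gene lists were chosen with earlier results of these data known. Linear models with moderated variances (eBayes) were fitted with limma 3.58.1 under R 4.3.3, with Benjamini-Hochberg adjustment over all probe sets tested, a threshold of 0.05 and 124 control probe sets left out. For the tissues, 20 normal-teat arrays were fitted with affection status as covariate, and the 10 inverted-teat arrays on their own. Outside the replicate block alternative, neither tissue fit took account of which arrays came from the same pig. Tissue SEs and p-values given beside counts of animals are thus unpaired. The correlation between arrays of a pig, estimated over the probe sets, was 0.311 in normal and 0.251 in inverted teats. Teat comparisons used the 15 arrays of a tissue, and interactions all 30. The fits were tested on simulated data.

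Every member may be named. Values on each array are given for up to 6 called members per direction in the tissue comparison of normal teats, and for the teat comparisons the 2 smallest p per direction are named; from the other lists, up to 2 called genes per direction.

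The animal numbers pair the arrays, since arrays with the same number come from the same animal. After removal of group means, Pearson's r between an animal's normal and inverted teat was 0.24 to 0.54 in epithelium and 0.14 to 0.67 in mesenchyme, and between the tissues of a teat or animal it was -0.03 to 0.69. Alternatives were quantile normalization, no filter, the animal as a replicate block, the keratin or the skeletal muscle mean as a covariate, 1 fit over all arrays, the mean of a gene's probe sets, each animal left out, and the epithelial inverted array of animal 1103 left out. Leaving out the mesenchymal arrays of animals 950, 957, 963 and 964, and counting only probe sets that passed the filter in both tissues, were chosen after seeing the data. Errors are SD for group means and SE for differences.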

Additional observations from a re-analysis of the deposited data

Results flagged for a closer look

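Of 180 groups of 5 arrays, over the 30 members tested in any fit, 7 held an array far from the other 4; chance alone would flag about 5% of groups. Of these, 2 lie on the epithelial array of the inverted teat of animal 1103: FOXA1 at 3.61, against 8.55 to 9.60 on the other 4 arrays, and HOXA3 at 2.87, against 5.21 to 5.68. In mesenchyme of inverted teats, FOXA1 was at 2.58 in animal 1037, against 7.84 to 9.91, and FOXA2 at 3.38 in animal 964, against 4.54 to 4.84. In mesenchyme of normal teats of affected animals, FOXO3 was at 6.81 in animal 1103, against 5.68 to 6.0, and GATA2 at 6.97 in animal 1037, against 6.02 to 6.21. FOXL2, a factor of ovary and pituitary, was at 5.30 in the epithelium of non-affected animal 950, against 6.12 to 6.44.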

How the results depend on the processing

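In normal teats the count of 13 members called stayed between 10 and 15 in all alternatives but the covariates. With the keratin mean as a covariate it was 4 (FOXO1, HOXA9, HOXD8 and MEIS1) and 1780 of all probe sets, and with the skeletal muscle mean 7 and 3032, against 6122. Both means differ between the tissues themselves, so these fits cannot tell them apart from the tissue. Leaving out each animal gave 11 to 14 members, and the counts of all probe sets for these settings are not given here. With the replicate block the count of all probe sets rose from 6122 to 8124. A steady count of members is therefore not read as a result about the members. In inverted teats, against 2 members and 2115 probe sets, quantile normalization gave 0 and 2, no filter 0 and 1090, the replicate block 4 and 3683, the muscle covariate 0 and 1, the mean of a gene's probe sets 1 member, and leaving out the epithelial array of animal 1103 gave 1 and 1350. Leaving out each animal gave 0 to 2 members and 1 to 1490 probe sets. In the teat comparisons and interactions the replicate block and every other alternative kept 0 members; 1 probe set was called for affected against non-affected animals in mesenchyme without animal 957, and the range over animals left out was 0 to 1. The cause of these shifts was not tested. No called member changed sign in any alternative run. The number of arrays, and for FOXA2, PAX3, SOX10 and, in inverted epithelium, HAND1 a signal near the 30th percentile, limit what can be detected.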
